A study of Homo sapiens with 12 samples.

Results

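The transcription factors POU5F1 (OCT4), SOX2, NANOG, PRDM14 and SALL4 hold human embryonic stem cells in the pluripotent state, and their genes were followed here through neural induction. They were chosen by symbol, as 5 of the 59050 gene symbols in the count table. Each of them passed the filter on low counts in every comparison, for which counts in a single cell state are enough. The neural progenitor cells (NPC) were made from the human embryonic stem cell line HUES8, wild type by its label, in 7 days of dual SMAD inhibition. They received SB431542 (2.5 uM, which blocks Nodal and activin receptors) and LDN193189 (0.05 uM, which blocks BMP receptors), without SB431542 in the last 2 days. The embryonic stem cells (ESC) were HUES8 cells kept in stem cell medium. Each state was measured in 3 libraries of rRNA-depleted total RNA (RNA_NPC and RNA_ESC) and 3 libraries of ribosome-bound RNA (RIBO_NPC and RIBO_ESC), 12 libraries in all. All came from the same cell line, and nothing in the sources used here says that they came from separate cultures, so p-values measure the spread between these libraries, which may be technical.

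OCT4 and SOX2 bind DNA side by side, OCT4 through its POU domain at an octamer and SOX2 through its HMG box at a SOX site, and together with the homeodomain protein NANOG they sustain their own genes and those of the wider pluripotency network. PRDM14, a zinc finger protein of the PRDM family, acts with them in human stem cells and in germ cells, and SALL4, a zinc finger protein that recruits the NuRD repressor complex, is active in early embryos, fetal organs and many germ cell tumours. SOX2 is also a defining factor of neural stem and progenitor cells, so that the same protein serves both states compared here.

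Promoter sequences were available to show for 2 of the 5 genes, NANOG and SOX2. None was available for POU5F1, SALL4 and PRDM14, so nothing is said of theirs. Each of the 2 carries letters of the octamer within the 250 bases before its start site. NANOG fell in NPC while SOX2 did not pass the test, and a link to these letters was not tested. Both promoters are from RefSeq on GRCh38.p14, on the plus strand, at chr12:7789152-7789401 and chr3:181711675-181711924. Capitals mark, in NANOG, the SOX site letters CATTGT, 1 base and the octamer letters ATGCAAA. These read on the opposite strand and so appear as their reverse complement. In SOX2, capitals mark ATGCAAA on the strand of the gene.
NANOG promoter: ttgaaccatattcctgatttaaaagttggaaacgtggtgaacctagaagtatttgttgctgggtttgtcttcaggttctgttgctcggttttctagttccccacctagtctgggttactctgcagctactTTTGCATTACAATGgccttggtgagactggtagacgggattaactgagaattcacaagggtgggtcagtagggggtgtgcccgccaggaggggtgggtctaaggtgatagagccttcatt
SOX2 promoter: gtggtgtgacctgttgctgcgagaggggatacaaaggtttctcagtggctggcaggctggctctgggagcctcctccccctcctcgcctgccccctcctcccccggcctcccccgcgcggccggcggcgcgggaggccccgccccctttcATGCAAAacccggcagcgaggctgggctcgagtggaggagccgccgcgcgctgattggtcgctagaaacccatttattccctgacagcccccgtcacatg
The 14 bases in NANOG began 120 bases before its start site, and that element is the classic joint site of OCT4 and SOX2 in this promoter. The 7 bases in SOX2 began 100 bases before its start. On both strands, ATGCAAA stood in 3.94%, the whole octamer (ATGCAAA and then T) in 1.63% and CATTGT in 9.29% of 35116 promoters of the same length. The first 7 letters lie within the octamer, so these matches overlap. The joined element stood in 2 of them (0.00570%), NANOG and NRARP, a feedback inhibitor of Notch signalling. The NANOG promoter had 47.6% GC and 4 CpG, and the SOX2 promoter had 68.8% GC and 20 CpG, with medians of 58.0% and 11 over all promoters.

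Levels are given in CPM, counts divided by each library's TMM-adjusted total, separately for each assay. They compare libraries for the same gene and do not rank genes against each other, because transcript lengths were not used here. RNA libraries held 19529738 to 35117370 counts, and ribosome-bound libraries held 2422756 to 4451196. A count of 0 allows up to 3 counts, which is 0.0854 to 0.154 CPM in RNA and 0.674 to 1.24 CPM in ribosome-bound libraries, for counting error only. RNA_ESC replicate 3 stood apart from the other RNA_ESC libraries, with Pearson r over genes of 0.980 and 0.976 against 0.996 between those. RIBO_ESC replicate 2 likewise stood apart, at 0.927 and 0.940 against 0.976. Of 12 neural progenitor markers, 11 were higher in NPC RNA and 1 did not pass the test, and their summed level was 1231 to 1286 CPM in RNA_NPC and 511 to 549 CPM in RNA_ESC. In these bulk samples, fewer cells of a type and less RNA per cell cannot be told apart.

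Neural induction divided the factors into 3 that nearly disappeared from total RNA, 1 without a detected change and 1 that rose. POU5F1, NANOG and PRDM14 fell, SOX2 did not pass the test, and SALL4 rose. Among all 18631 genes tested, 26.4% were called higher and 26.2% lower in NPC RNA, so a call by itself is common, and the median log2 fold change was 0.03. The falls were far larger than the spread between libraries. Changes were tested with the edgeR quasi-likelihood test and adjusted by Benjamini-Hochberg over all genes tested, with a threshold of 0.05.

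**Figure D1:**
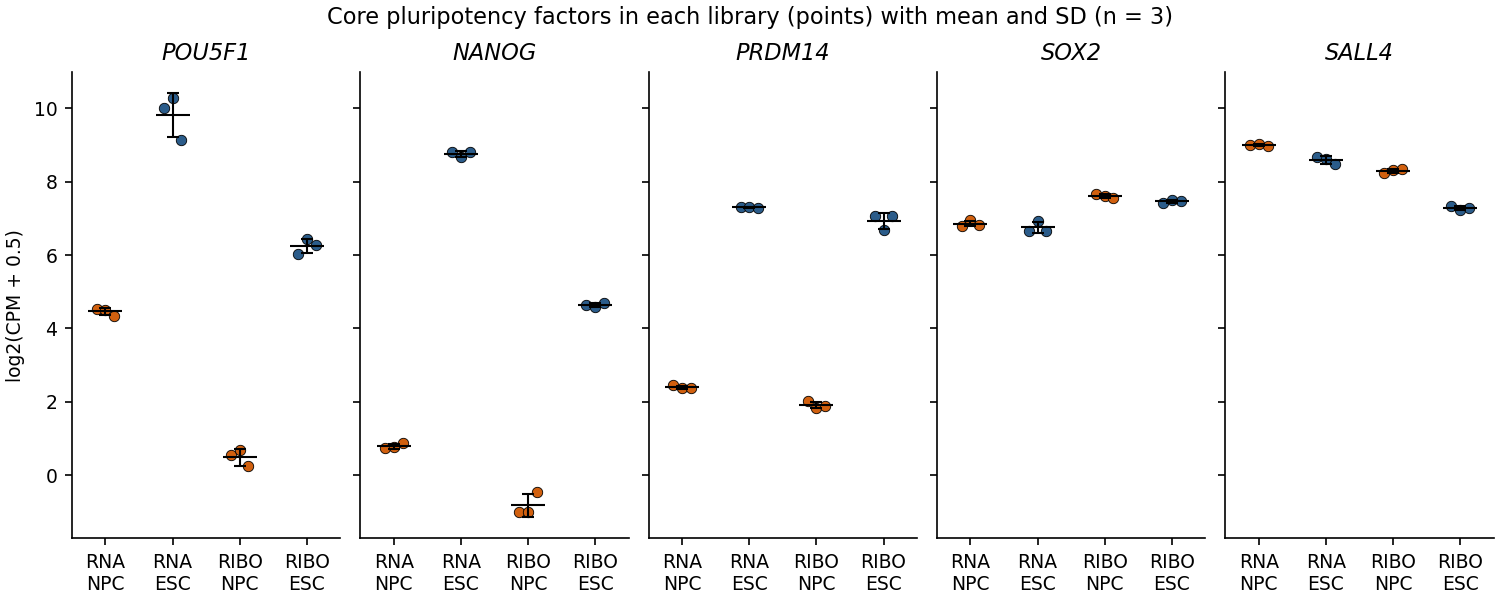
Each point is a library, on a vertical axis of log2(CPM + 0.5), with total RNA at left and ribosome-bound RNA (RIBO) at right of each panel and NPC left of ESC. Bars give the mean and SD of the 3 libraries per group. POU5F1, NANOG and PRDM14 have all NPC points far below the ESC points in both assays, and SALL4 has them above.

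POU5F1 encodes OCT4, the POU factor without which pluripotent cells are lost. Its RNA stood at 22.7, 22.3 and 19.7 CPM in the RNA_NPC libraries, against 1025, 1240 and 565 CPM in the RNA_ESC libraries. The groups were far from overlapping, and the spread lay almost wholly within ESC, where replicate 3, the library that stood apart, was lowest. POU5F1 RNA was 21.6 ± 1.62 CPM in NPC and 943 ± 345 CPM in ESC (SD, n = 3 each), a log2 fold change of -5.45 ± 0.30 (SE), or 43.7-fold lower (adjusted p = 4.30e-06). Without RNA_ESC replicate 3 the log2 fold change was -5.72. POU5F1 remained countable after 7 days, with 2066 counts in the RNA_NPC libraries together.

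NANOG is the homeodomain factor whose level is known to vary between stem cells of the same culture. Its RNA was 1.16, 1.203 and 1.34 CPM in NPC, against 446, 407 and 447 CPM in ESC. Both groups were tight, and nothing lay between them. NANOG averaged 1.24 ± 0.0908 CPM in NPC and 433 ± 23.1 CPM in ESC (SD, n = 3 each), a log2 fold change of -8.45 ± 0.13 (SE), or 349-fold lower (adjusted p = 4.56e-08). Its NPC level was 0.288% of the ESC level, while that of POU5F1 was 2.22% and that of PRDM14 was 3.02%. NRARP, the other gene with the joined element in its promoter, had 66.9 CPM in RNA_NPC and 60.6 CPM in RNA_ESC (adjusted p = 0.507). Its ribosome-bound RNA rose by 1.47 (adjusted p = 0.00262) and its efficiency by 1.28 (adjusted p = 0.0123).

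PRDM14 is the PRDM factor that supports POU5F1 expression in human stem cells. Its RNA was 4.96, 4.67 and 4.67 CPM in NPC, against 158, 158 and 155 CPM in ESC, and the libraries of a group lay close together in both states. PRDM14 averaged 4.77 ± 0.168 CPM in NPC and 157 ± 1.81 CPM in ESC (SD, n = 3 each), a log2 fold change of -5.04 ± 0.11 (SE), or 32.9-fold lower (adjusted p = 1.22e-07). The 95% interval of PRDM14 (-5.29 to -4.79) lay inside that of POU5F1 (-6.15 to -4.75), while that of NANOG (-8.75 to -8.14) lay below both. The 3 genes that fell therefore did not keep the same remaining share of their ESC level.

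SOX2 RNA was 110, 122 and 113 CPM in NPC, against 101, 121 and 100 CPM in ESC. The ranges overlapped, with ESC replicate 2 inside the NPC range. SOX2 averaged 115 ± 6.29 CPM in NPC and 108 ± 11.9 CPM in ESC (SD, n = 3 each), and the log2 fold change of 0.10 ± 0.11 (SE) did not pass the test (adjusted p = 0.476). Its 95% interval ran from -0.16 to 0.36, so at most a 1.28-fold rise lay within it.

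SALL4 was the only one of the 5 genes with more RNA in NPC by this test. It stood at 506, 522 and 501 CPM in NPC, against 408, 393 and 355 CPM in ESC. All NPC libraries lay above all ESC libraries, and RNA_ESC replicate 3 was again the lowest. SALL4 averaged 510 ± 11.0 CPM in NPC and 385 ± 26.9 CPM in ESC (SD, n = 3 each), a log2 fold change of 0.40 ± 0.09 (SE), or 1.32-fold higher (adjusted p = 0.00560). Without RNA_ESC replicate 3 the log2 fold change was 0.35.

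Ribosome-bound RNA gave the same calls for the 5 genes, with 1 higher, 3 lower and 1 not past the threshold. Among all 12250 genes tested in that assay, 31.6% were higher and 30.3% lower in NPC, and the median log2 fold change was -0.01. The ribosome-bound libraries were much shallower, and POU5F1 and NANOG came close to the counting floor there in NPC. These genes passed the filter on low counts in that assay through their RIBO_ESC libraries, where they are high.

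POU5F1 had 0.968, 1.12 and 0.684 CPM in the RIBO_NPC libraries, from 3, 4 and 3 counts, against 65.0, 86.3 and 76.1 CPM in the RIBO_ESC libraries. The groups did not overlap, and the NPC values lay at about the level that a count of 0 allows. POU5F1 averaged 0.925 ± 0.223 CPM in RIBO_NPC and 75.8 ± 10.6 CPM in RIBO_ESC (SD, n = 3 each), a log2 fold change of -6.32 ± 0.30 (SE), or 80.1-fold lower (adjusted p = 1.80e-07).

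NANOG had 0, 0 and 1 counts in the RIBO_NPC libraries and 77, 54 and 94 counts in the RIBO_ESC libraries. Those ESC counts correspond to 24.2, 23.4 and 25.4 CPM. With 1 count in NPC against 225 in ESC, the ratio of ESC over NPC after scaling was 270, with an exact 95% interval of 48.0 to 10725 for counting error. The fitted log2 fold change was -7.58 ± 0.51 (SE, adjusted p = 5.82e-07), and its size rests on that 1 count: without RIBO_NPC replicate 3, which held it, the value was -9.26.

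PRDM14 kept more ribosome-bound counts than the other falling genes, 36 over the RIBO_NPC libraries. It had 3.55, 3.09 and 3.19 CPM there, against 132, 101 and 134 CPM in RIBO_ESC, where replicate 2, the library that stood apart, was lowest. PRDM14 averaged 3.28 ± 0.242 CPM in RIBO_NPC and 122 ± 18.1 CPM in RIBO_ESC (SD, n = 3 each), a log2 fold change of -5.21 ± 0.25 (SE), or 37.1-fold lower (adjusted p = 1.80e-07). Without RIBO_ESC replicate 2 it was -5.35.

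SOX2 had 203, 195 and 188 CPM in RIBO_NPC, against 171, 180 and 177 CPM in RIBO_ESC. Every NPC library lay above every ESC library, but the distance was small. SOX2 averaged 195 ± 7.50 CPM in RIBO_NPC and 176 ± 4.21 CPM in RIBO_ESC (SD, n = 3 each). Its log2 fold change of 0.15 ± 0.18 (SE) did not pass the test across all genes (adjusted p = 0.481), with a 95% interval of -0.24 to 0.54.

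SALL4 had 299.8, 315 and 324 CPM in RIBO_NPC, against 162, 148 and 154 CPM in RIBO_ESC. The groups were well separated, and each was tight. SALL4 averaged 313 ± 12.5 CPM in RIBO_NPC and 155 ± 6.78 CPM in RIBO_ESC (SD, n = 3 each), a log2 fold change of 1.02 ± 0.18 (SE), or 2.02-fold higher (adjusted p = 5.36e-04). Without RIBO_ESC replicate 2 the log2 fold change was 0.97 for SALL4 and -6.25 for POU5F1, and each of the 5 genes kept its call without either of the libraries that stood apart.

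Translational efficiency is how much of a gene's RNA is found on ribosomes relative to its total RNA. It was compared between states as the interaction of assay and state over all 12 libraries. SALL4 was the 1 of the 5 genes past the threshold, with a higher efficiency in NPC, and 4 did not pass. Among all 11866 genes tested for efficiency, 22.9% were higher and 19.0% lower in NPC, and the median log2 difference was -0.05. Efficiency is a relative scale, since totals are made equal within each assay.

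SALL4 efficiency differed by 0.56 ± 0.20 on the log2 scale (SE), with a 95% interval of 0.14 to 0.99 (adjusted p = 0.0345). The ratio of CPM in the ribosome-bound to the RNA library of the same number was 0.592, 0.604 and 0.648 in NPC, against 0.397, 0.378 and 0.433 in ESC, without overlap. The call was not stable. It was kept under 9 of 20 alternatives, over which the difference ran from 0.50 to 0.60 and the adjusted p from 2.27e-04 to 0.0897. With both libraries that stood apart left out, the difference was 0.57 (adjusted p = 7.69e-04).

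POU5F1 efficiency differed by -0.98 ± 0.52 (SE), with a 95% interval of -2.08 to 0.11, and did not pass (adjusted p = 0.136). Over 20 alternatives it ran from -1.22 to -0.64, with adjusted p of 0.0530 to 0.330, and it was -0.74 without RNA_ESC replicate 3. PRDM14 differed by -0.24 ± 0.26 (SE), with an interval of -0.80 to 0.32 (adjusted p = 0.489). For SOX2 the interval was -0.43 to 0.42 (adjusted p = 0.996), so a change of more than about 1.34-fold in either direction lay outside it. For NANOG the interval of -2.68 to 3.54 (adjusted p = 0.880) was too wide to tell a rise from a fall, since it rests on 1 ribosome-bound count in NPC.

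**Figure D2:**
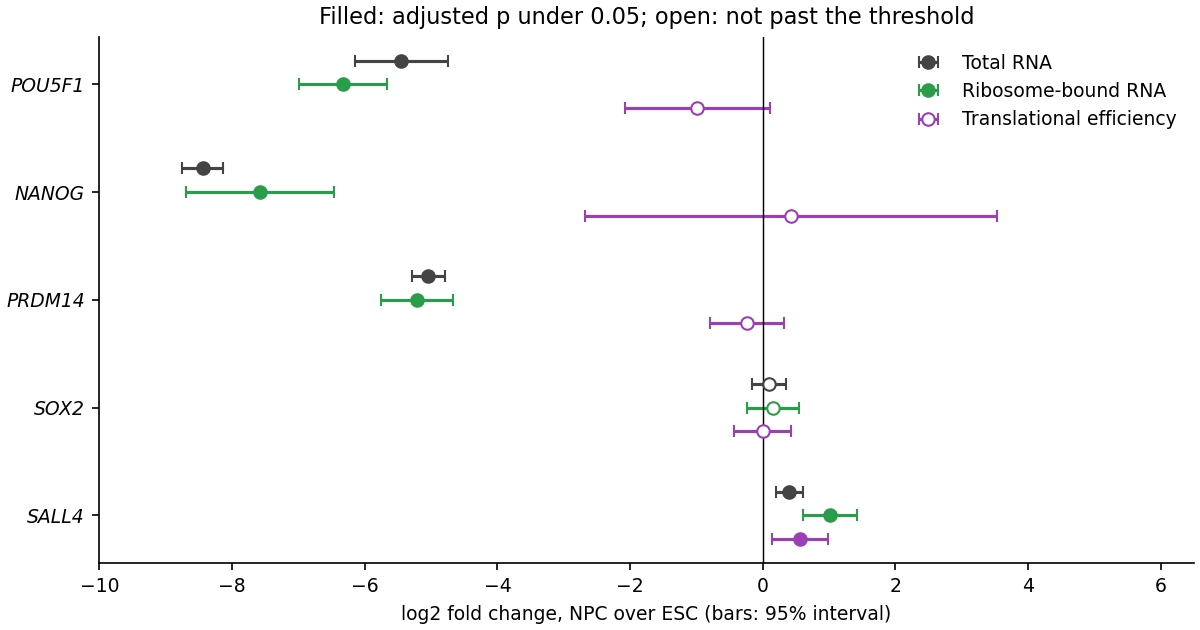
Points are log2 fold changes of NPC over ESC for the 5 genes in total RNA, ribosome-bound RNA and translational efficiency, with 95% intervals, and filled points passed the test. The falls of POU5F1, NANOG and PRDM14 lie between -8.45 and -5.04, whereas every efficiency interval except that of SALL4 crosses 0.

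Within a state, the 5 genes differed widely in efficiency. The levels below are log2 ratios of ribosome-bound to total RNA from the same fit, with medians of -0.04 in NPC and -0.14 in ESC over the 11866 genes. POU5F1 and NANOG stood near the bottom. In ESC, where counts were ample, POU5F1 was at -3.38 ± 0.24 (SE) and NANOG at -3.90 ± 0.18 (SE), and 1.89% and 1.05% of genes were lower. In NPC they were at -4.36 ± 0.39 and -3.47 ± 0.67, from 10 and 1 ribosome-bound counts. For NANOG the difference between states in the same fit had a larger SE, 1.47, so ± 0.67 may understate the uncertainty.

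SOX2 stood in the upper part of the range in both states, at 0.96 ± 0.14 in NPC and 0.96 ± 0.14 in ESC (SE), with 79.5% and 78.1% of genes below it. PRDM14 lay near the middle, at -0.34 ± 0.22 in NPC and -0.11 ± 0.15 in ESC (SE), with 39.8% and 50.9% of genes below. SALL4 lay at -0.50 ± 0.14 in NPC and -1.06 ± 0.14 in ESC (SE), with 35.0% and 25.2% of genes below. In ESC the order from low to high was NANOG, POU5F1, SALL4, PRDM14 and SOX2, with NANOG and POU5F1 the closest neighbours. Which parts of a transcript were counted and how ribosomes were isolated are not given, and their part in this order was not tested. The sources used here do not say how reads that match several places were counted, and POU5F1 and NANOG have copies elsewhere in the genome, so the part of that counting in their low ratios was not tested.

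**Figure D3:**
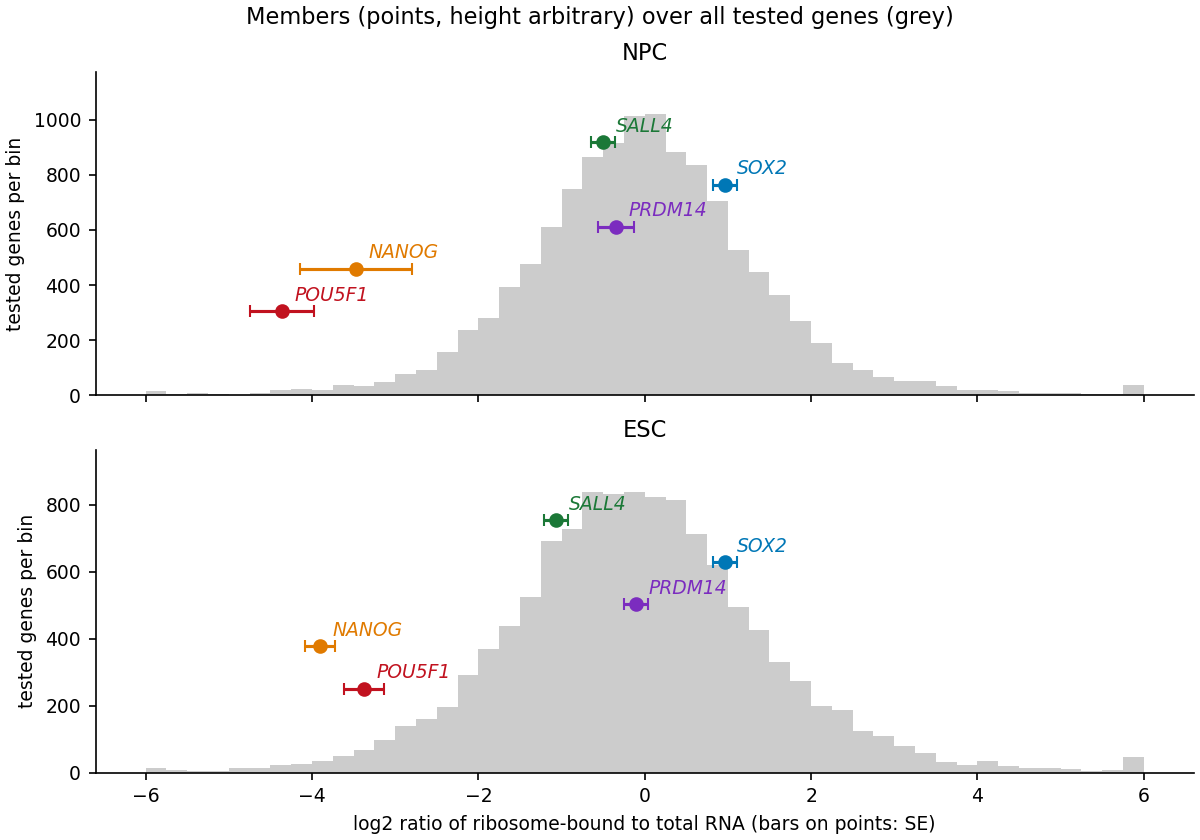
Grey bars count the tested genes by their log2 ratio of ribosome-bound to total RNA in NPC (above) and ESC (below), with values beyond 6 in either direction placed in the outermost bars. Coloured points with SE bars mark the 5 genes at arbitrary heights. The SE bar of NANOG in NPC rests on 1 ribosome-bound count and may be too short. POU5F1 and NANOG lie in the lower tail in both states and SOX2 lies above the median.

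The copies were counted next. The table held 7 POU5F1 copies, of which 5 had a count, 11 NANOG copies, of which 6 had a count, and 5 SALL4 pseudogenes. For SOX2 and PRDM14 none was listed. POU5F1 copies together held counts equal to 6.63% of those of POU5F1 in RNA_NPC and 0.278% in RNA_ESC. In ribosome-bound RNA they held 1.31% in RIBO_ESC, and 2 counts against the 10 of POU5F1 in RIBO_NPC. NANOG copies held 49.6% of the NANOG count in RNA_NPC and 8.06% in RNA_ESC, and in RIBO_NPC 6 counts against the 1 of NANOG. In RIBO_ESC the NANOG copies held 36 counts against the 225 of NANOG. For both genes the share of the copies was larger in ribosome-bound than in total RNA, from few counts in NPC. SALL4 pseudogenes held at most 0.140% of the SALL4 count in any group.

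NANOGP8, an intronless copy of NANOG with an open reading frame, had 0.101 CPM in RNA_NPC and 20.6 CPM in RNA_ESC, a log2 fold change of -7.57 (adjusted p = 7.14e-07). NANOGP1, the neighbouring duplicate of NANOG, had 0.192 CPM in RNA_NPC and 13.4 CPM in RNA_ESC (-6.05, adjusted p = 1.69e-06). Both fell, as NANOG did, and how reads shared by these 3 genes were assigned is not known, so their values are uncertain. POU5F1B, the retrocopy of POU5F1, had 0.911 CPM in RNA_NPC and 1.51 CPM in RNA_ESC, a smaller log2 fold change (-0.73, adjusted p = 0.0228). LINC-ROR, a long noncoding RNA that carries microRNA sites shared with POU5F1, NANOG and SOX2, had 0.0218 CPM in RNA_NPC and 9.20 CPM in RNA_ESC (-8.49, adjusted p = 1.22e-06).

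The chromosomal neighbours of the 5 genes moved in both directions. POU5F1 (chr6:31164337-31170682 on GRCh38.p14) lies 122 bases from TCF19, whose RNA was 19.5 CPM in NPC and 28.3 CPM in ESC, a fall of 0.53 on the log2 scale (adjusted p = 0.0197). On the far side of TCF19, CCHCR1 rose by 0.47 (adjusted p = 0.0350). SLC2A14, a glucose transporter gene next to NANOG (chr12:7789402-7799146), rose by 0.77 in RNA (7.10 CPM in NPC and 4.17 CPM in ESC, adjusted p = 0.00244).

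SOX2 (chr3:181711925-181714436) lies within SOX2-OT, a noncoding gene, which had 2.99 CPM in RNA_NPC and 3.62 CPM in RNA_ESC (-0.27, adjusted p = 0.259). Whether strand was used and how reads in such an overlap were assigned are not known. SOX2-OT had 289 counts in RNA_NPC against 11118 for SOX2. These counts do not show how many shared reads went to either gene. ATP9A, a lipid flippase gene beside SALL4 (chr20:51782331-51802521), rose with it, by 1.04 in RNA (adjusted p = 1.06e-04) and by 2.63 in ribosome-bound RNA (adjusted p = 4.10e-06). NFATC2, the next gene, fell by 1.14 in RNA (adjusted p = 0.00134) but rose by 1.10 in ribosome-bound RNA (adjusted p = 0.0381), and its efficiency rose by 2.20 (adjusted p = 8.58e-04). NFATC2 was low throughout, at 1.99 CPM in RNA_NPC and 4.40 CPM in RNA_ESC, with 50 counts in RIBO_NPC and 19 in RIBO_ESC. The nearest listed neighbours of PRDM14 (chr8:70051651-70071252) were pseudogenes with at most 10 counts in a group.

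Each gene's pattern over the 12 libraries was then set beside that of 11661 other genes, by Pearson correlation of log2(CPM + 0.5). The libraries share assay, depth and state, so these values are descriptions. NANOG was most like TDGF1, the Nodal co-receptor (r = 0.996), followed by SYT2 (0.995) and PODXL, a surface sialomucin of stem cells (0.995). POU5F1 was most like FAM83F (0.993), SFXN5 (0.993) and NKX1-2 (0.990). PRDM14 was most like CBR3 (0.998), AC003975.1 (0.996) and OLIG3 (0.995).

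The genes that did not fall had other company. SOX2 was most like YPEL3 (0.993), EDF1 (0.988) and MIR3609 (0.983). These correlations cover the gap between assays as well as that between states. Unlike SOX2, all of them passed as higher in ribosome-bound RNA of NPC, YPEL3 by 0.59, EDF1 by 0.64 and MIR3609 by 1.57. MIR3609 also rose by 1.98 in RNA (adjusted p = 2.84e-04). SALL4 was most like BCL9, a coactivator of beta-catenin (0.994), AC073869.1 (0.993) and PITPNM3 (0.992). Among the 5 genes themselves, POU5F1 and NANOG correlated at 0.956, NANOG and PRDM14 at 0.933, and POU5F1 and PRDM14 at 0.868. With Spearman correlation, 0 of the 3 genes named for each were again among the first 3, so the choice of these names depends on the measure.

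The wider pluripotency network fell with POU5F1, NANOG and PRDM14. Of 37 tested genes of that list, 28 fell, 3 rose and 6 did not pass in RNA, with a median log2 fold change of -2.35. In ribosome-bound RNA 26 of 33 fell and 4 rose, with a median of -2.18. In efficiency 5 rose, 4 fell and 24 did not pass, with a median of -0.41. The lists here were chosen with earlier results of these data known, and are given by their counts beside the percentages over all genes above.

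GDF3, a TGF-beta family ligand, had 0.153 CPM in RNA_NPC and 90.1 CPM in RNA_ESC (-9.22 ± 0.25, SE, adjusted p = 2.40e-07). TDGF1 had 2.58 CPM in RNA_NPC and 697 CPM in RNA_ESC (-8.07 ± 0.20, SE, adjusted p = 1.53e-07). The network also held genes that went the way of SALL4. NR6A1, a nuclear receptor known in mice to repress Oct4, rose by 0.52 in RNA (adjusted p = 0.00128) and by 2.46 in ribosome-bound RNA (adjusted p = 3.35e-06), and its efficiency rose by 1.89 (adjusted p = 3.01e-05). TCF3, which encodes the E-box binding E2A proteins and not TCF7L1, did not pass in RNA (0.10, adjusted p = 0.708) but rose by 1.56 in ribosome-bound RNA (adjusted p = 3.72e-05).

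OTX2, a homeodomain factor of both primed stem cells and forebrain, rose in both assays. Its RNA was 90.5 CPM in NPC and 8.70 CPM in ESC (3.38, adjusted p = 6.78e-07), and its ribosome-bound RNA was 89.5 CPM in NPC and 50.0 CPM in ESC (0.84, adjusted p = 0.00204). Its efficiency was lower by -2.59 on the log2 scale (adjusted p = 1.07e-06). ZSCAN10, a zinc finger partner of OCT4 and SOX2 in mouse stem cells, fell by 2.56 in RNA (adjusted p = 2.34e-04) and its efficiency fell by 1.33 (adjusted p = 0.0110).

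Partner proteins, mostly chromatin complexes that the 5 factors recruit, behaved differently between the assays. In RNA 5 of 38 rose, 12 fell and 21 did not pass, with a median of -0.20. In ribosome-bound RNA 23 rose and 6 fell, with a median of 1.22. In efficiency 19 rose and 1 fell, with a median of 0.80. CHD3, a NuRD helicase, had 104 CPM in RNA_NPC and 190 CPM in RNA_ESC (-0.88, adjusted p = 9.46e-05), but 178 CPM in RIBO_NPC and 52.8 CPM in RIBO_ESC (1.75, adjusted p = 1.51e-05). MTA2, also of NuRD, had 97.3 CPM in RIBO_NPC and 208 CPM in RIBO_ESC (-1.10, adjusted p = 4.52e-04), and was the 1 partner whose efficiency fell (-0.99, adjusted p = 0.00229).

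JARID2, a subunit of Polycomb repressive complex PRC2, fell by 2.09 in RNA (adjusted p = 1.47e-06), and its ribosome-bound RNA did not pass (0.49, adjusted p = 0.133). Its efficiency rose by 2.53 (adjusted p = 2.04e-05). Of the ETO family corepressors, RUNX1T1 fell by 3.72 in RNA (adjusted p = 2.41e-06) and by 2.86 in ribosome-bound RNA (adjusted p = 6.74e-06). CBFA2T3 rose by 2.59 in ribosome-bound RNA (adjusted p = 5.36e-04), or by 3.34 without RIBO_ESC replicate 1. That rise rests on 21 counts in RIBO_ESC, and CBFA2T3 did not pass in RNA (0.58, adjusted p = 0.0669). CBFA2T2 rose by 0.76 in RNA (adjusted p = 3.17e-04) and by 1.46 in ribosome-bound RNA (adjusted p = 1.45e-04). ZFHX3 rose in both, by 0.95 in RNA (adjusted p = 4.07e-04) and by 2.53 in ribosome-bound RNA (adjusted p = 4.00e-04). Its RIBO_ESC libraries were uneven, at 14.5, 1.73 and 5.40 CPM, and without replicate 1 the rise was 3.46. RCOR2, a corepressor of LSD1 complexes, rose by 0.84 in RNA (adjusted p = 0.0351), a call that was lost without RNA_ESC replicate 1 or any single RNA_NPC library, with adjusted p of 0.0551 to 0.0938.

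**Figure D4:**
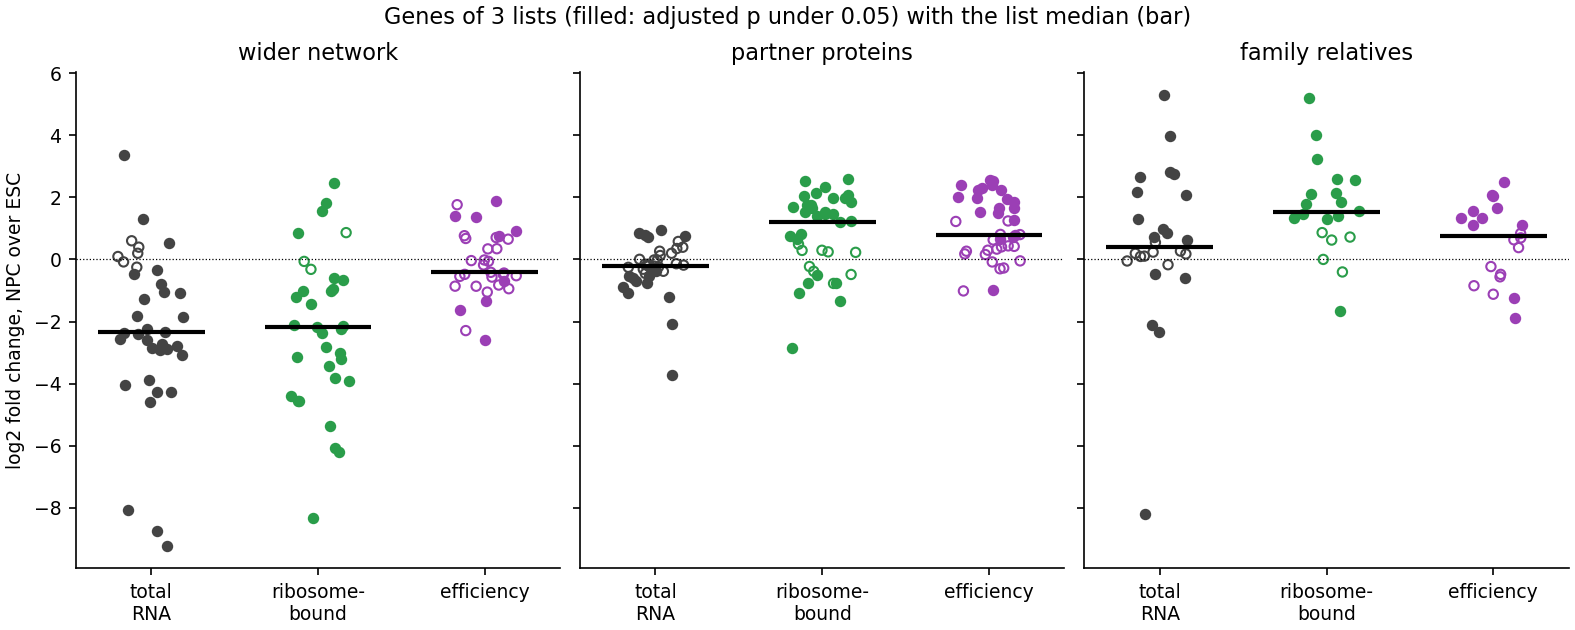
Points are genes, with the log2 fold change of NPC over ESC on the vertical axis, for the wider network, the partner proteins and the family relatives of the 5 factors. Bars are medians and filled points passed the test. The network median is -2.35 in RNA, and the partner median is -0.20 in RNA and 1.22 in ribosome-bound RNA.

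Family relatives of the 5 factors moved in both directions. Of 26 relatives tested in RNA 12 rose, 5 fell and 9 did not pass, with a median of 0.41. In ribosome-bound RNA 14 of 20 rose and 1 fell, with a median of 1.53, and in efficiency 9 rose and 2 fell, with a median of 0.77. Beside SALL4, the SALL family gave 3 further patterns, described by their values since no test compared one gene with another.

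SALL1 RNA was 221 CPM in NPC and 187 CPM in ESC and did not pass (0.24, adjusted p = 0.0771), while its ribosome-bound RNA was 195 CPM in NPC and 53.7 CPM in ESC (1.86, adjusted p = 7.21e-06). Its efficiency rose by 1.57 (adjusted p = 2.74e-05), more in size than the 0.56 of SALL4. SALL3 RNA fell by 2.12 (adjusted p = 4.00e-06), but its ribosome-bound RNA was 63.9 CPM in NPC and 63.9 CPM in ESC (adjusted p = 0.995), and its efficiency rose by 2.07 (adjusted p = 3.19e-06). SALL2 passed in none of the comparisons, with adjusted p of 0.324 in RNA, 0.151 in ribosome-bound RNA and 0.105 in efficiency.

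The SOXB1 relatives of SOX2, which share functions with it in neural progenitors, rose where SOX2 did not pass. SOX1 had 46.9 CPM in RNA_NPC and 2.94 CPM in RNA_ESC (3.99, adjusted p = 5.67e-07), and its efficiency fell by 1.89 (adjusted p = 6.93e-04). SOX3 had 36.2 CPM in RNA_NPC and 7.97 CPM in RNA_ESC (2.18, adjusted p = 1.08e-04). SOX21, a SOXB2 factor known in chick to counteract the SOXB1 group, had 95.3 CPM in RNA_NPC and 13.6 CPM in RNA_ESC (2.81, adjusted p = 1.81e-06), and rose by 3.24 in ribosome-bound RNA (adjusted p = 5.55e-07).

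The POU family held genes of both directions. POU2F3 fell by 1.65 in ribosome-bound RNA (adjusted p = 5.64e-04), while POU3F1 rose there by 1.30 (adjusted p = 0.00191). POU3F2 rose by 5.30 in RNA (adjusted p = 8.42e-05) and also rose in ribosome-bound RNA (adjusted p = 3.83e-04). In RNA, POU4F1 rose by 2.08 (adjusted p = 6.20e-04) and POU3F4 fell by 8.20 (adjusted p = 5.66e-06). POU3F2 and POU3F4 failed the rule for naming genes, on level (10 CPM in the higher state) or on separation of the groups. Their CPM are not given here, so the sizes of their changes are to be read with care. PRDM16, a relative of PRDM14 and a regulator of neural stem cells, had 73.9 CPM in RIBO_NPC and 2.09 CPM in RIBO_ESC (5.19, adjusted p = 7.98e-07).

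Markers of other fates were read beside these results. Neural crest markers were higher in NPC RNA for 6 of 7 tested and lower for 1, with sums of 278 to 294 CPM in RNA_NPC and 38.5 to 71.4 CPM in RNA_ESC. Neuron markers rose for 2 of 7 and fell for 4, with sums of 337 to 369 CPM in RNA_NPC and 87.7 to 117 CPM in RNA_ESC. Mesoderm and endoderm markers, 1 higher and 4 lower of 7, summed to 4.22 to 4.81 CPM in RNA_NPC and 12.5 to 14.4 CPM in RNA_ESC, and in ribosome-bound RNA to 19.1 to 28.3 CPM in NPC and 287 to 314 CPM in ESC. Trophoblast and amnion markers, 3 higher and 2 lower of 6, summed to 80.2 to 82.4 CPM in RNA_NPC and 77.6 to 81.2 CPM in RNA_ESC, with CGA at 0 in RNA_ESC. The part of these other cell types in the levels of SOX2 and SALL4 was not tested.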

How the data were processed

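The authors deposited raw counts for each gene, in whole numbers and without normalization, as 1 table with a column per library. Per the submitters' processing notes, cutadapt 1.18, Bowtie 1.2, STAR 2.7.1a and featureCounts 1.6.4 were used, with builds hg38 and GRCh38. Not given in the sources used here are the annotation, the use of strand, the treatment of reads with several matches and the isolation of ribosomes.

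NPC was compared with ESC by the quasi-likelihood test of edgeR 4.0.16 in R 4.3.3, with TMM scaling, the filterByExpr filter and p-values adjusted by Benjamini-Hochberg over all genes tested (threshold 0.05), in a fit per assay, and efficiency as the assay by state interaction over all 12 libraries. The standard error is the log2 fold change divided by the square root of F. DESeq2 1.42.0 and limma 3.58.1 (voom) served as alternatives, together with other scalings, no filter on low counts, a replicate block and leaving out each library. Python 3.11.15 made the tables. Of 59050 symbols, 37282 matched RefSeq (GRCh38.p14), which gave places and promoters, promoters for 2 of the 5 genes.

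Deviations from the group means correlated at 0.185, 0.143 and 0.384 between RNA_NPC and RNA_ESC libraries of the same number. Unlike numbers gave -0.344 to 0.217, with RNA_NPC 1 closer to RNA_ESC 2 than to RNA_ESC 1. These values therefore do not establish pairs by number, and the labels state none. Ribosome-bound libraries of the same number gave -0.176, -0.253 and -0.00773.

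Genes named from the lists were the 2 largest rises and falls past the threshold per comparison, with groups that did not overlap and at least 10 CPM in the higher state (5 CPM in every group for efficiency). POU relatives outside this rule were added to show both directions, and CBFA2T2 was added beside the other ETO genes. SOX1, SOX3, SALL1, SALL2 and SALL3 were always named, and copies, neighbours and the 3 most similar genes were added for each of the 5 genes. A gene that this rule names is not reported here. The 5 genes and the lists were chosen with earlier results of these data known.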

Additional observations from a re-analysis of the deposited data

Results flagged for a closer look

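The change of SALL4 between states differed between the assays. The interaction of assay and state was 0.56 on the log2 scale, a rise of 1.02 in ribosome-bound RNA beside 0.40 in total RNA, and the edgeR quasi-likelihood test gave an adjusted p of 0.0345. All ratios of libraries of the same number were higher in NPC than in ESC. Among all genes tested 22.9% were called higher in efficiency, and SALL1 (1.57) and SALL3 (2.07) had larger values. The SALL4 call was kept under 9 of 20 alternatives.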

How the results depend on the processing

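In total RNA and in ribosome-bound RNA, each of the 5 genes kept its direction and its side of the threshold under all 13 alternatives per assay, the replicate block included. The log2 fold change ran in RNA from -5.72 to -5.22 for POU5F1, -8.52 to -8.38 for NANOG, -5.07 to -4.97 for PRDM14, 0.02 to 0.17 for SOX2 and 0.35 to 0.47 for SALL4. In ribosome-bound RNA it ran from -6.47 to -6.09 for POU5F1, -9.26 to -6.96 for NANOG, -5.35 to -5.16 for PRDM14, 0.12 to 0.20 for SOX2 and 0.97 to 1.07 for SALL4.

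Efficiency calls were less stable, and the cause was not tested. SALL4 lost its call with RLE size factors (0.50, adjusted p = 0.0549), with no filter on low counts (0.60, adjusted p = 0.0897) and with the replicate block (0.56, adjusted p = 0.0880), which left 0 of the 5 genes past the threshold in each case. RNA and ribosome-bound libraries share only a number, so that block is no paired design. Leaving out each library gave SALL4 0.53 to 0.59 and 0 to 1 genes past the threshold. The call was lost without RNA_ESC replicate 1 or 2, any RNA_NPC replicate, RIBO_ESC replicate 3 or RIBO_NPC replicate 2 or 3. With limma voom 2 genes passed, NANOG joining at 1.43 (adjusted p = 0.0150). NANOG ran from -3.41 (without RIBO_NPC replicate 3, which held its 1 count) to 0.94 over these omissions. SOX2, at -0.0017, changed sign with protein-coding totals (0.0074), with no filter (0.037) and with both libraries that stood apart left out (0.036, an omission chosen after seeing the data), and ran from -0.081 to 0.054 over single omissions.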
